A study of Mus musculus with 12 samples.

Results

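The 8 genes described here encode 2 small enzyme families that set how glucose carbon is used, and they were examined for HIF1A and ARNT peaks in N1E115 cells, a mouse neuroblastoma line labelled NOS1+. Pfkfb1, Pfkfb2, Pfkfb3 and Pfkfb4 and Pdk1, Pdk2, Pdk3 and Pdk4 were taken by name, 8 of the 21631 protein-coding genes that the annotation places on the autosomes or X. For each gene, all peaks that overlapped the mm10 gene span plus 10 kb on either side were collected from the 8 deposited peak lists. The groups were HIF1A ChIP from cells at 4% O2, HIF1A ChIP at 20% O2, ARNT ChIP at 4% O2 and ARNT ChIP at 20% O2, with 2 lists in each. All cells were kept for 3 days with 5% CO2 at ambient pressure, and 4 input samples, 2 at each oxygen level, served as the controls for peak calling. The study used 1 cell line, and the labels do not say whether the 2 replicates of a group came from separate cultures. Nor do they say so for the HIF1A and ARNT samples of the same replicate number. A p-value thus covers the spread of these samples alone, which may be technical.

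PFKFB proteins are bifunctional enzymes that make and break the sugar bisphosphate that activates phosphofructokinase, so they raise or lower the rate of glycolysis. PDK proteins phosphorylate pyruvate dehydrogenase and switch it off, which keeps pyruvate from entering the mitochondrial citric acid cycle. HIF-1, the dimer of HIF1A and ARNT, is known to bind hypoxia response elements with the core ACGTG or GCGTG, and Pdk1, Pfkfb3 and Pfkfb4 are known hypoxia-responsive genes in mammals. ARNT also takes part in complexes that recognise CACGTG, a motif that contains ACGTG on both strands.

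In replicate 1, HIF1A lists had 42701 entries at 4% O2 and 5393 at 20% O2, and ARNT lists had 24942 and 7252. In replicate 2, HIF1A lists had 13655 entries at 4% O2 and 13386 at 20% O2, and ARNT lists had 9920 and 1808. Both HIF1A replicate 2 lists hold single-base positions, taken here as the place of a peak since no header says what they mark, were called against input 5, and rest on 2 pooled runs of the sequencer. Intervals, called against input 4, make up the other 6 lists; input 4 was that of the same oxygen level, so HIF1A and ARNT intervals of one oxygen level share an input. Per the file headers, the 4 replicate 1 samples shared a lane. The lists hold no read counts, so depth is unknown and a list's length moves with depth and enrichment alike. Each entry has a score from the authors, of unstated scale. Below, a score stands as a percentile of its list, where 100 is the top, or as a rank, where 1 is the top.

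The promoter windows of the genes with a peak region in both HIF1A lists at 4% O2 are shown because a HIF1A position of replicate 2 at 4% O2 fell inside each of them. Each window runs from 250 bases before to 50 after an annotated start, 5′ to 3′ on the gene's strand, in GRCm38.p6 (the same assembly as mm10), from RefSeq. Capitals mark the core, ACGTG or GCGTG, on either strand, and thus also every CACGTG. Pfkfb3 has 2 annotated starts, both shown.
Pdk1 (chr2:71872974-71873273, plus strand): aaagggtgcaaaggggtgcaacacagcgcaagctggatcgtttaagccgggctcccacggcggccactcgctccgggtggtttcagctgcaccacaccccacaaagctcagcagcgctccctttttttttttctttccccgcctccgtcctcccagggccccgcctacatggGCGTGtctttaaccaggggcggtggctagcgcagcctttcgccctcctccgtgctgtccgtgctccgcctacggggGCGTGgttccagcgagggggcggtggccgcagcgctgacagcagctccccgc
Pdk3 (chrX:93832101-93832400, minus strand): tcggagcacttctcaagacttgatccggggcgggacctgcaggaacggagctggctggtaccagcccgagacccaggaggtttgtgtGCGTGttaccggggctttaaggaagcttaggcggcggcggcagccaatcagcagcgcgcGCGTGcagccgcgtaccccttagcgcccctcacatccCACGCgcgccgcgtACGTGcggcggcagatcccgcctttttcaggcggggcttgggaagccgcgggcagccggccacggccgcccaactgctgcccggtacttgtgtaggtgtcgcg
Pdk2 (chr11:95041322-95041621, minus strand): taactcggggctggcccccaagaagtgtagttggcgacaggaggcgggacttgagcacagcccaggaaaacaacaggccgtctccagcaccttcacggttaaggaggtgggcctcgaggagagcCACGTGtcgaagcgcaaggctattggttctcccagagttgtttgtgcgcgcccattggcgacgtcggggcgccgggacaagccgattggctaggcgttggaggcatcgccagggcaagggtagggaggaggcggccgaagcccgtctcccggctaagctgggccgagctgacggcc
Pfkfb4 (chr9:108991652-108991951, plus strand): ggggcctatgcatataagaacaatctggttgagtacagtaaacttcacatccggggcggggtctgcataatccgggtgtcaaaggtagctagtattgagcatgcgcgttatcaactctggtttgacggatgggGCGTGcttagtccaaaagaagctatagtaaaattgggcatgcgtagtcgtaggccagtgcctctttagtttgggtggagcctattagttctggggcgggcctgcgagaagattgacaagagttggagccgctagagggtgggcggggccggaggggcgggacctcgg
Pfkfb3 upstream start (chr2:11553880-11554179, minus strand): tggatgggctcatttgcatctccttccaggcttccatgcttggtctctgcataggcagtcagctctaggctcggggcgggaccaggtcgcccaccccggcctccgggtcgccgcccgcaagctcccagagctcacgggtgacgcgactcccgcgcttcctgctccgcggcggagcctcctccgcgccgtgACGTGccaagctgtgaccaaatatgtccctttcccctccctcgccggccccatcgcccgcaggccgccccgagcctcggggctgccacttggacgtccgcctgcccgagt
Pfkfb3 internal start (chr2:11502041-11502340, minus strand): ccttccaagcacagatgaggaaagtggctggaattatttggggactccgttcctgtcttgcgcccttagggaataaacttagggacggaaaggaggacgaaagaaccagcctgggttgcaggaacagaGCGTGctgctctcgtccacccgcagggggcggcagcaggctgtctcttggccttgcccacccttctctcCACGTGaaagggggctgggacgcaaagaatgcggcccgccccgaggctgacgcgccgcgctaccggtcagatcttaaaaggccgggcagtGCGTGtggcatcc

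All 8 genes matched the promoter table, with 16 starts among them, and 11 of the 16 windows (68.8%) held ACGTG or GCGTG on either strand, against 43.8% of all 32851 promoter windows. ACGTG stood in 19.6%, GCGTG in 32.4% and CACGTG in 7.15% of all windows. Of the 2678 windows that held a HIF1A position of replicate 2 at 4% O2, 86.5% had a core motif and 17.9% had CACGTG. Every one of the 8 genes had a core motif in at least 1 of its windows, Pdk4 included, which had no peak in any list. The share of all genes with a core motif in at least 1 window was not computed. A gene with more annotated starts has more windows that can hold a match. A match in these letters is a description of the sequence and not a measured site.

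At 4% O2, 5 of the 8 genes had a region with a HIF1A peak in both lists, against 34.2% of all protein-coding genes (62.5% of the 8). They were Pfkfb3, Pfkfb4, Pdk1, Pdk2 and Pdk3. ARNT had such a region at 3 of the 8 (37.5%, against 27.7% of all genes), namely Pfkfb3, Pdk1 and Pdk3, and all 3 were also among the HIF1A genes. A HIF1A and an ARNT region together were present at 24.0% of all genes. At 20% O2 neither antibody had a region in both lists at any of the 8, where the share of all genes was 10.1% for HIF1A and 7.11% for ARNT. The gene windows are not of equal length: the median span was 42.1 kb for the 8 genes and 17.3 kb for all genes, and a longer window has more room for a peak.

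The absence at 20% O2 rested on the need for both lists. HIF1A replicate 2 at 20% O2 had a peak at 4 of the 8 (Pfkfb3, Pfkfb4, Pdk1 and Pdk3), against 31.7% of all genes, and replicate 1 had none at any of the 8, against 11.3% of all genes. A peak in replicate 2 and none in replicate 1 was the state of 20.9% of all genes. For ARNT at 20% O2, replicate 1 had a peak at 3 of the 8 (Pfkfb2, Pfkfb3 and Pdk1, against 22.3% of all genes) and replicate 2 at Pdk2 alone (against 7.6%). At 4% O2 the HIF1A lists had a peak at 7 and 5 of the 8 (56.9% and 34.8% of all genes) and the ARNT lists at 6 and 4 (49.3% and 35.5%), for replicates 1 and 2. In all, 7 of the 8 genes had a peak in at least 1 list, against 61.1% of all genes. The 8 genes held 18 and 9 HIF1A and 11 and 6 ARNT peaks at 4% O2, against 0 and 6 HIF1A and 3 and 1 ARNT peaks at 20% O2. Per 1000 entries of the list, HIF1A had 0.422 and 0.659 peaks at 4% O2, against 0 and 0.448 at 20% O2. ARNT had 0.441 and 0.605 per 1000 at 4% O2, against 0.414 and 0.553 at 20% O2. Per entry the ARNT lists of the 2 oxygen levels overlapped, and so did the HIF1A lists, whose replicate 2 at 20% O2 was above replicate 1 at 4% O2. In replicate 2 the median of the 8 genes was 1 HIF1A peak at 4% O2 and 0.5 at 20% O2, and the median of all genes was 0 in both. In HIF1A replicate 1 the median of the 8 genes equalled that of all genes, 1 at 4% O2 and 0 at 20% O2.

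**Figure D1:**
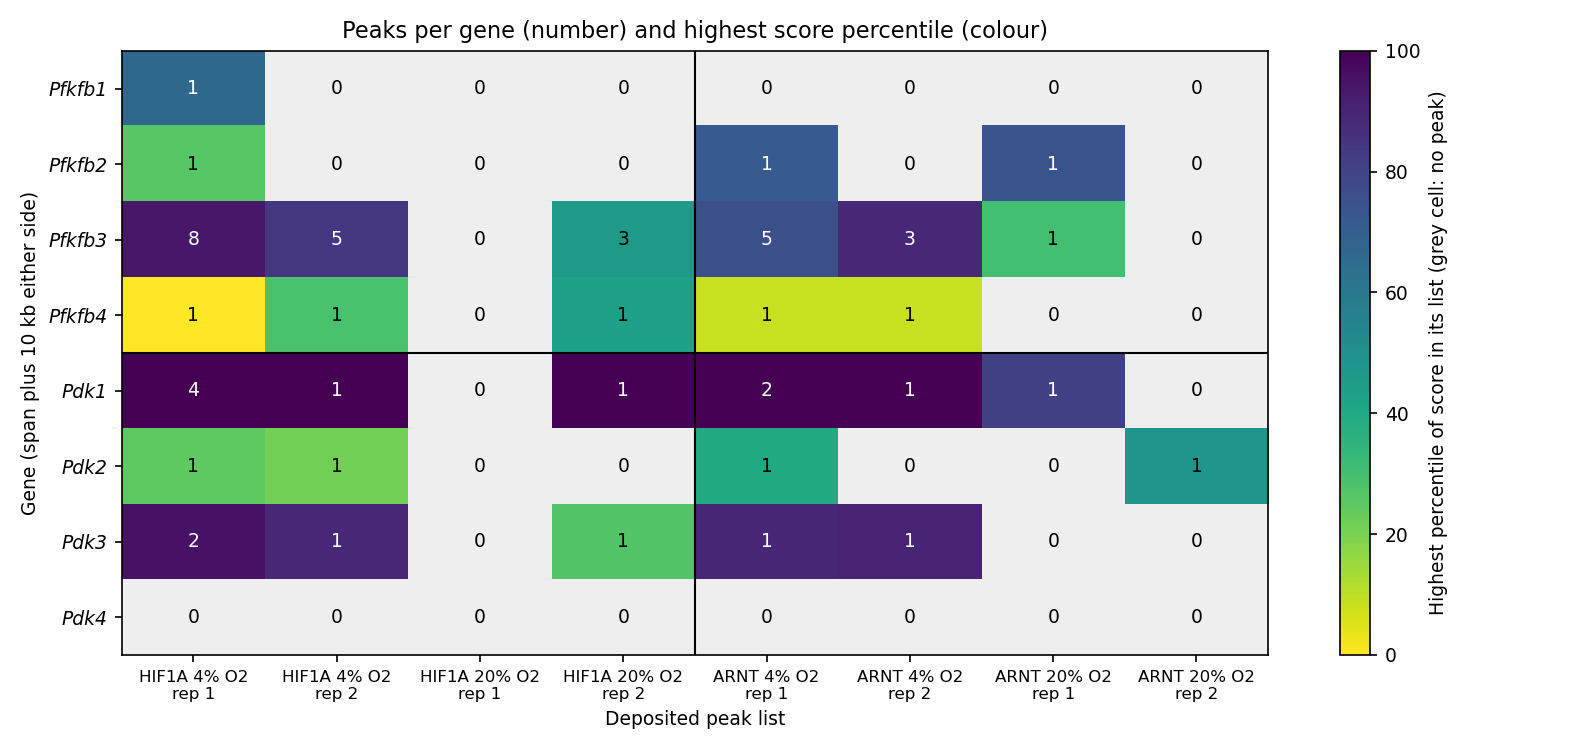
Number of peaks (printed) and highest score percentile (colour) for each of the 8 genes, in rows, in each of the 8 deposited lists, in columns. Pdk1 is at the dark end in all of its 4% O2 lists, Pdk4 has 0 peaks everywhere, and the HIF1A 20% O2 replicate 1 column is empty.

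**Figure D2:**
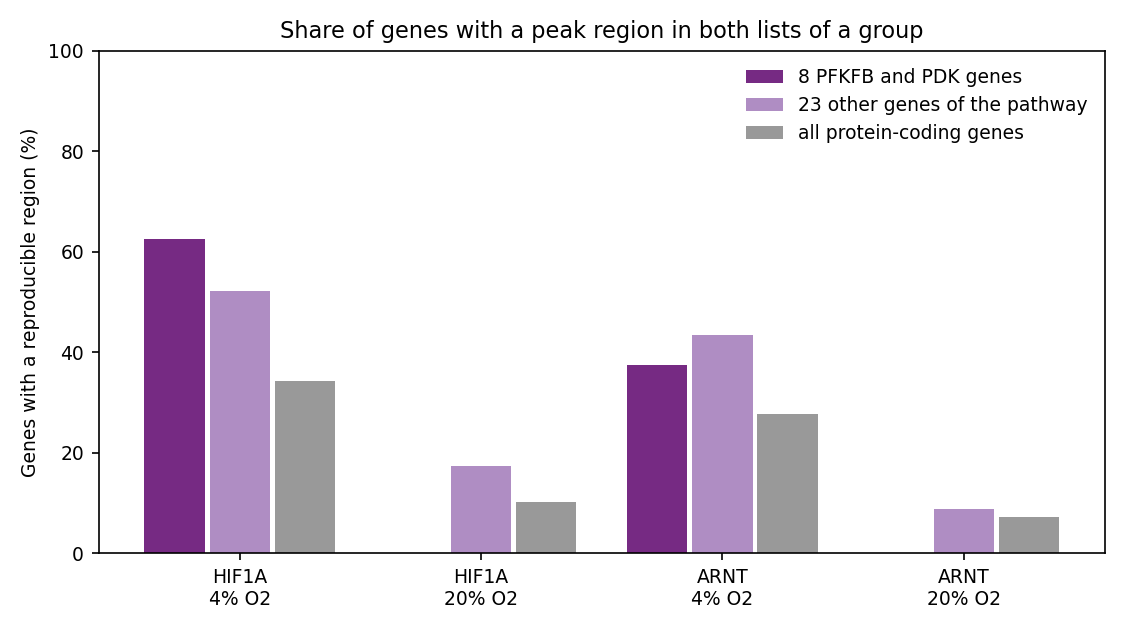
Percent of genes (y axis) with a peak region shared by both lists of a group (x axis), for the 8 PFKFB and PDK genes, 23 other genes of the pathway and all protein-coding genes. The first 2 bars at 4% O2 stand above all genes for both antibodies, and the 8 genes have no bar at 20% O2.

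Pdk1, the kinase of pyruvate dehydrogenase best known as a hypoxia target, had the highest-ranking peak of both families (chromosome 2, 71873215 to 71903858). At 4% O2 the peak over its start ranked 46 of 42701 in HIF1A replicate 1, where it spanned 2192 bp, and 20 of 13655 in HIF1A replicate 2. It ranked 40 of 24942 in ARNT replicate 1, with 1174 bp, and 10 of 9920 in ARNT replicate 2, with 1829 bp. At 20% O2 HIF1A replicate 1 had no peak at Pdk1, while HIF1A replicate 2 had a position that ranked 36 of 13386. ARNT replicate 1 at 20% O2 had a 106 bp peak over the start that ranked 1338 of 7252, the 81.2nd percentile, and ARNT replicate 2 had none. All 4 lists at 4% O2 thus placed the start at percentiles of 99.8 to 99.9, and the 4 lists at 20% O2 ran from no peak to the 99.7th percentile, so the 2 oxygen levels nearly met through 1 list.

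The start of Pdk1 was a site in 6 of the 8 lists, and 6.27% of the 47948 merged sites of the genome were in 6 or more. The HIF1A positions of replicate 2 lay 39 bp downstream of the annotated start at 4% O2 and 19 bp downstream at 20% O2, 20 bp apart. Within the printed window, which ends close to both positions, the GCGTG at the start itself was the nearest core motif to both. Pdk1 had further, weaker HIF1A peaks in replicate 1 at 4% O2, at percentiles of 10.1, 13.0 and 71.1. The first of them lay upstream of the gene. The others were inside it, 315 and 2642 bp downstream of its second annotated start. The smaller ARNT entry upstream of the start, at the 35.8th percentile, lay within the broad HIF1A peak. In number of peaks, Pdk1 had 4 and 1 HIF1A and 2 and 1 ARNT peaks at 4% O2, against 0 and 1 HIF1A and 1 and 0 ARNT peaks at 20% O2 (difference of means 1.5, two-sided exact permutation test, p = 0.222). The difference was 0.5 without replicate 1, 2.5 without replicate 2 and 0.5 with each list limited to its 1808 highest entries. The HIF1A numbers of the 2 oxygen levels met at 1 and the ARNT numbers at 1.

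Pdk3, the isoform with the highest reported kinase activity in mammals, had a compact site at its start with 1 main peak per list at 4% O2 (chromosome X, 93764616 to 93832150). The HIF1A peak ranked at the 95.1st percentile in replicate 1 and at the 88.4th in replicate 2, and the ARNT peak at the 89.4th and the 89.9th. At 20% O2 HIF1A replicate 1 had none, HIF1A replicate 2 had a position at the 27.2nd percentile, and neither ARNT list had a peak. For ARNT both lists at 4% O2 held the site and both lists at 20% O2 lacked it, while for HIF1A 1 list at 20% O2 held it at a low rank. The ACGTG 51 bp before the start stood 10 bp from the HIF1A position at 4% O2 and 6 bp from that at 20% O2, and a GCGTG on the other strand 4 and 8 bp from them. Replicate 1 also had a weak HIF1A peak 629 bp upstream, at the 5.3rd percentile. Pdk3 held 2 and 1 HIF1A peaks and 1 and 1 ARNT peaks at 4% O2, against 0 and 1 HIF1A peaks and no ARNT peak at 20% O2 (difference of means 1.0, exact permutation test, p = 0.111). Without replicate 1 the difference was 0.5, as it was with the 1808 highest entries of each list, and without replicate 2 it was 1.5.

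Pdk2, the most widely expressed member of the PDK family, had a low-ranking site at its start (chromosome 11, 95026258 to 95041371). At 4% O2 its HIF1A peaks stood at the 24.8th and 21.1st percentiles and ARNT replicate 1 had a peak at the 39.4th. At 20% O2 ARNT replicate 2, the shortest list, had a peak at the 47.7th percentile, and the other 3 lists had none. HIF1A had 1 peak in both lists at 4% O2 and 0 in both at 20% O2, without overlap, while ARNT had 1 and 0 at 4% O2 and 0 and 1 at 20% O2, which overlap. The test of the difference over all 8 lists gave p = 0.5 (exact permutation). The HIF1A position of replicate 2 at 4% O2 lay 192 bp upstream of the start and 68 bp from CACGTG. The replicate 1 intervals of both antibodies at 4% O2 covered that CACGTG, as did the ARNT replicate 2 interval at 20% O2.

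Pdk4, the isoform induced by fasting in muscle and heart, had 0 peaks in all 8 lists over a window that held its span of 12.9 kb and 10 kb on either side (chromosome 6, 5483351 to 5496278). Across the genome 61.1% of genes had a peak in some list. Its promoter window held 1 GCGTG, 69 bp before the start.

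**Figure D3:**
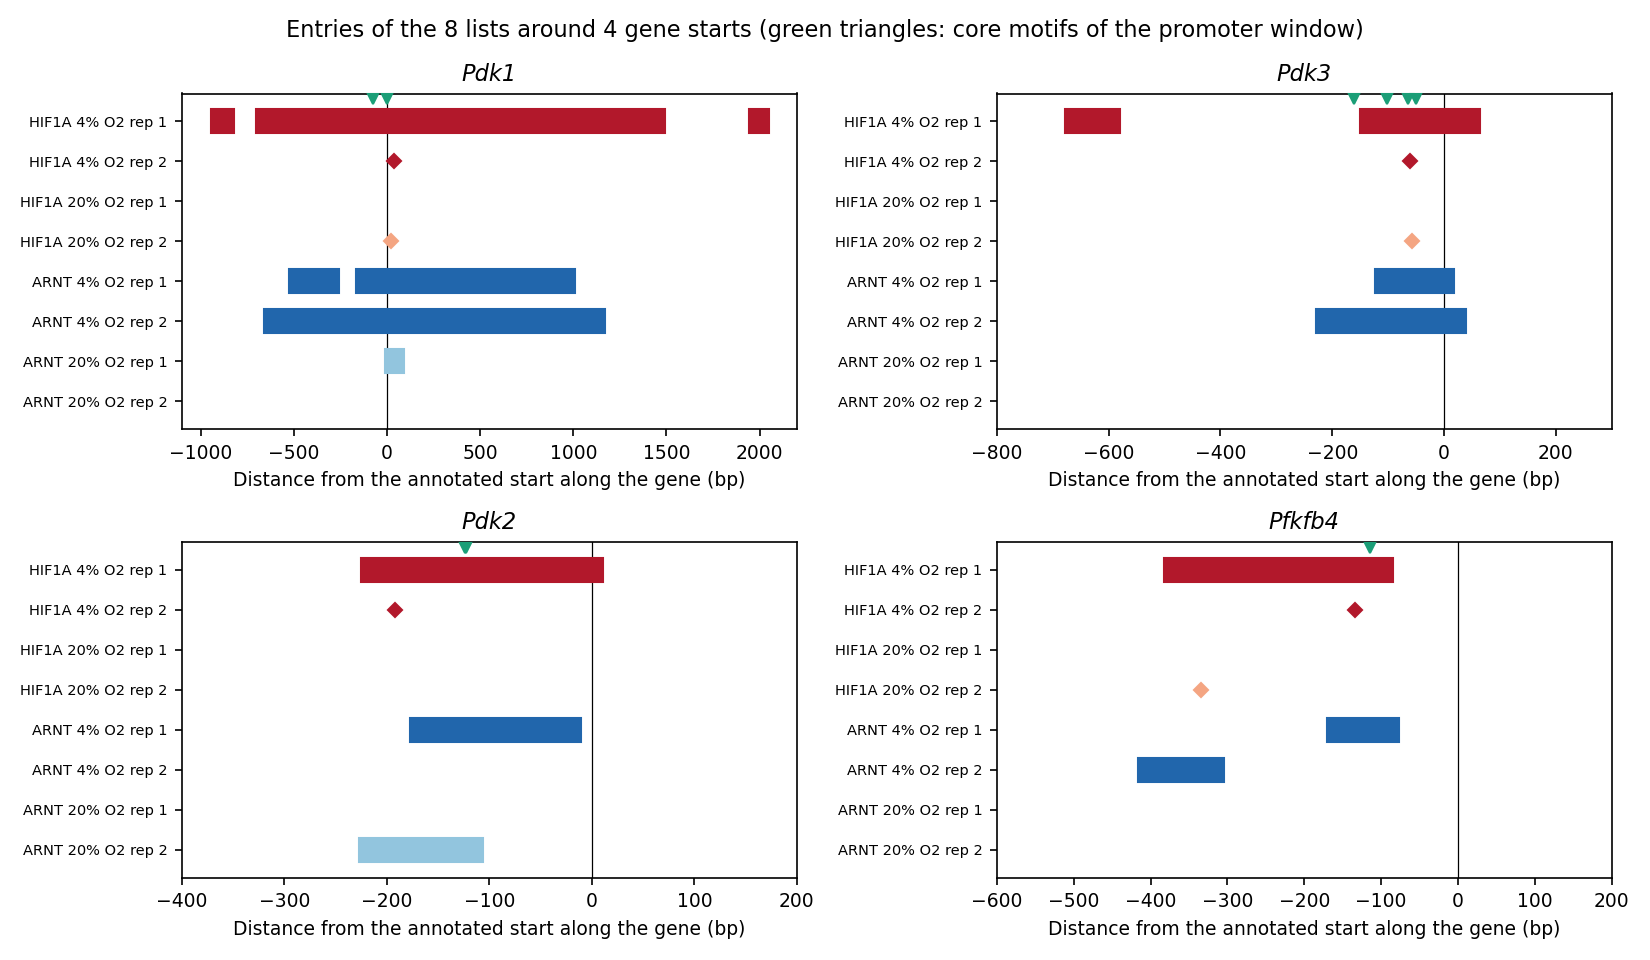
Entries of the 8 lists (rows) by distance in bp from the annotated start along the gene (x axis) for Pdk1, Pdk3, Pdk2 and Pfkfb4; bars are intervals, diamonds are single-base positions, and triangles mark core motifs of the promoter window. At Pdk1 the 4% O2 bars run over 1174 to 2192 bp across the start against 106 bp in ARNT 20% O2 replicate 1, and 1 further HIF1A entry of Pdk1 lies to the right of the plotted range.

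Pfkfb3, the inducible isoform with the highest kinase activity relative to its phosphatase activity, had more peaks than any other of the 8 (chromosome 2, 11471430 to 11554071). It held 8 and 5 HIF1A peaks and 5 and 3 ARNT peaks at 4% O2, against 0 and 3 HIF1A peaks and 1 and 0 ARNT peaks at 20% O2. Both lists at 4% O2 were above both lists at 20% O2 for each antibody. The difference of means was 4.25 peaks (5.25 at 4% O2 and 1.0 at 20% O2), and the exact test gave p = 0.0556, two-sided, as low as its 36 arrangements can reach. That p was reached, with more peaks at 4% O2, by 10.3% of all genes. The test exchanged the labels of the 2 antibodies independently, so the p would be too low if their samples came from the same cultures. The difference was 6.0 peaks in replicate 1 alone, whose samples shared a lane, and 2.5 in replicate 2 alone. With each list limited to its 1808 highest entries it was 0.25 (exact permutation test, p = 1).

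The peaks of Pfkfb3 fell into 8 merged sites, most of them away from the upstream start. The highest lay inside the gene, 1.2 kb downstream of the internal start by the HIF1A replicate 1 interval (11500674 to 11501103). It stood at the 93.7th and 84.3rd percentiles for HIF1A and at the 75.7th and 88.4th for ARNT at 4% O2. At 20% O2 HIF1A replicate 2 had a position there at the 11.8th percentile and the other 3 lists had none. This site, the one around the internal start and one 18.4 kb into the gene were each in 5 of the 8 lists, as were the sites of Pdk3 and Pfkfb4, and 14.2% of all merged sites were in 5 or more. Next to it, HIF1A peaks at the 85.8th and 23.1st percentiles and an ARNT peak at the 52.7th in replicate 1 stood at 4% O2, with none in the 4 lists at 20% O2.

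At the site around the internal start HIF1A stood at the 86.5th and 43.6th percentiles at 4% O2, and ARNT had peaks at the 67.5th and 14.0th. The replicate 1 intervals of both antibodies covered the start, and the ARNT replicate 2 interval lay 178 bp downstream of it and did not overlap that of replicate 1. At 20% O2 ARNT replicate 1 alone had a peak, at the 30.3rd percentile. The HIF1A position of replicate 2 lay 28 bp from the CACGTG of the printed window and 41 bp from a GCGTG. The lists do not give a strand, and the annotated start of a lncRNA, Gm52500, lies within the same stretch.

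A further site lay inside the gene, about 18.4 kb downstream of the upstream start. HIF1A peaks were at the 81.6th and 58.4th percentiles and ARNT peaks at the 33.1st and 68.5th at 4% O2, with 1 HIF1A position at the 8.7th percentile in replicate 2 at 20% O2. At the upstream start HIF1A alone had peaks, and at 4% O2 alone: 41.3 and 2.8 were the percentiles in replicate 1 and 20.3 that in replicate 2. The replicate 2 position was 37 bp from the single ACGTG of that window. A site 9.5 kb upstream had HIF1A replicate 1 at the 52.4th and ARNT replicate 1 at the 36.4th percentile at 4% O2, against HIF1A replicate 2 at the 45.9th at 20% O2. One HIF1A peak of replicate 1 at 4% O2, at the 54.2nd percentile, lay beyond the 3′ end, 6744 bp from it. Whether the peaks inside the gene fall in exons or introns was not analysed here.

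**Figure D4:**
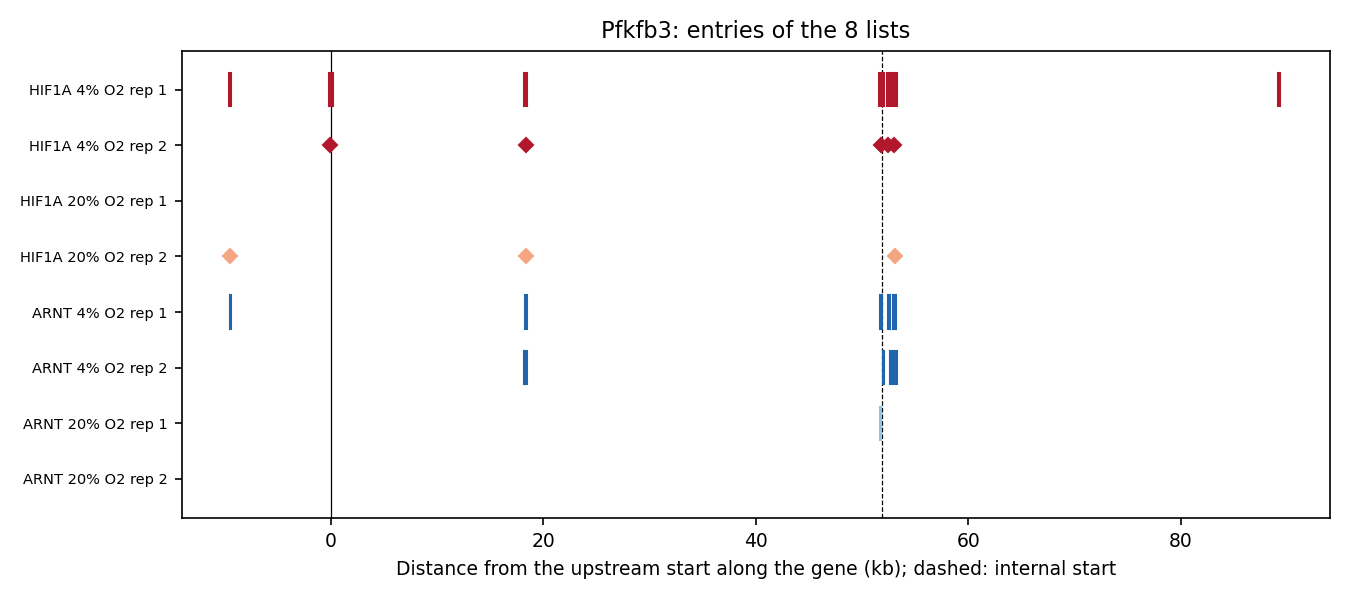
Entries of the 8 lists (rows) along Pfkfb3, by distance in kb from the upstream start (x axis); bars are intervals, diamonds single-base positions, and the solid and dashed lines the upstream and internal starts. The entries gather near the internal start, where all 4 lists at 4% O2 have some, as do HIF1A replicate 2 and ARNT replicate 1 at 20% O2.

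Pfkfb4, a hypoxia-responsive isoform first described in testis, had a single site, below the middle of every list that held it (chromosome 9, 108988272 to 109032236). The site lay just upstream of the annotated start of its promoter window (108991902). It was thus inside the gene span, which begins before that start. At 4% O2 HIF1A had 1 peak in each list, at the 0.2nd and 28.7th percentiles, and ARNT 1 in each, at the 8.5th and 8.3rd. At 20% O2 HIF1A replicate 2 had a position at the 42.7th percentile, and the other 3 lists had none. The ARNT numbers of the 2 oxygen levels did not overlap (1 and 1 against 0 and 0) and the HIF1A numbers did (1 and 1 against 0 and 1), with a difference of means of 0.75 over all lists (exact permutation test, p = 0.167). The 2 ARNT entries at 4% O2 did not overlap each other, since their centres lay 124 and 361 bp upstream of the start. The HIF1A position at 4% O2 was 19 bp from the one GCGTG of the window, and that at 20% O2 was 219 bp from it. The HIF1A score in replicate 1 ranked 42609 of 42701, close to the end of its list.

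Pfkfb2, the isoform known from heart, had no region in both lists of any group (chromosome 1, 130689043 to 130729253). HIF1A replicate 1 and ARNT replicate 1 at 4% O2 and ARNT replicate 1 at 20% O2 had a peak at the same place, at the 25.9th, 71.1st and 74.0th percentiles, and the other 5 lists had none. All 3 of these lists shared a lane. The peak lay 125 to 136 bp from the annotated start of Yod1, a deubiquitinase gene inside the Pfkfb2 span, and 1404 to 1415 bp upstream of the nearest Pfkfb2 start. The 3 Pfkfb2 promoter windows held CACGTG once and 4 further core motifs, and had no entry. Pfkfb1, the isoform of liver and muscle, had 1 peak in all, in HIF1A replicate 1 at 4% O2, at the 66.3rd percentile (chromosome X, 150587445 to 150643878). It overlapped the second of 4 annotated Pfkfb1 starts and lay 22 bp from an end of Apex2, a DNA repair endonuclease gene that overlaps Pfkfb1. The numbers of peaks at these genes differed by 0.25 on average (exact permutation test, p = 1 for each).

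Peak numbers of an antibody were taken not to overlap where both lists of 1 oxygen level held more peaks than both lists of the other. Both lists at 4% O2 had more peaks than both lists at 20% O2 at 2 of the 8 for HIF1A (Pfkfb3 and Pdk2), against 17.1% of all genes, and at 3 of the 8 for ARNT (Pfkfb3, Pfkfb4 and Pdk3), against 21.2%. None of the 8 had fewer peaks in both lists at 4% O2, which held for 0.102% of all genes for HIF1A and 0.0971% for ARNT. With 2 lists a group the exact test of 1 antibody cannot go below p = 0.333. Each list at 4% O2 was longer than the list of the same antibody and number at 20% O2. With the 1808 highest entries of each list, Pdk1 was the one gene with a region in both lists, for each antibody at 4% O2, and the share of all genes was 6.65% for HIF1A and 5.41% for ARNT.

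The HIF1A replicate 2 lists, with 13655 positions at 4% O2 and 13386 at 20% O2, are close in length and form, so ranks can be set side by side there, in 1 pair of samples with no replicate check. Pdk1 ranked 20 at 4% O2 and 36 at 20% O2. The Pdk3 position ranked 1584 and 9692, and the Pfkfb3 position near the internal start 2150 and 11806. The second Pfkfb3 position, 18.4 kb into the gene, ranked 5672 and 12183, and Pfkfb4 went the other way, with 9733 at 4% O2 and 7605 at 20% O2. In percentiles the differences, 4% minus 20% O2, were 0.2 for Pdk1, 61.2 for Pdk3, 72.5 and 49.7 for Pfkfb3 and -14 for Pfkfb4. Of all 13655 positions at 4% O2, 51.7% had a position at 20% O2 within 300 bp, with a median percentile difference of 0.1. The 10th and 90th percentiles of that difference were -46.4 and 44.4. The Pdk3 and both Pfkfb3 differences lay above the upper of these, and those of Pdk1 and Pfkfb4 between them. That range pools pairs of every percentile, and a difference of such size needs a high percentile at 4% O2. Positions without a partner were left out. At 20% O2 this was the Pfkfb3 position 9.5 kb upstream (45.9th percentile). At 4% O2 these were Pfkfb3 positions at the 23.1st, 43.6th and 20.3rd percentiles and the Pdk2 position at the 21.1st. The paired positions of the 2 oxygen levels were 4 to 39 bp apart at Pdk3, Pdk1 and Pfkfb3, where the median over all such pairs was 22 bp, and 200 bp apart at Pfkfb4.

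**Figure D5:**
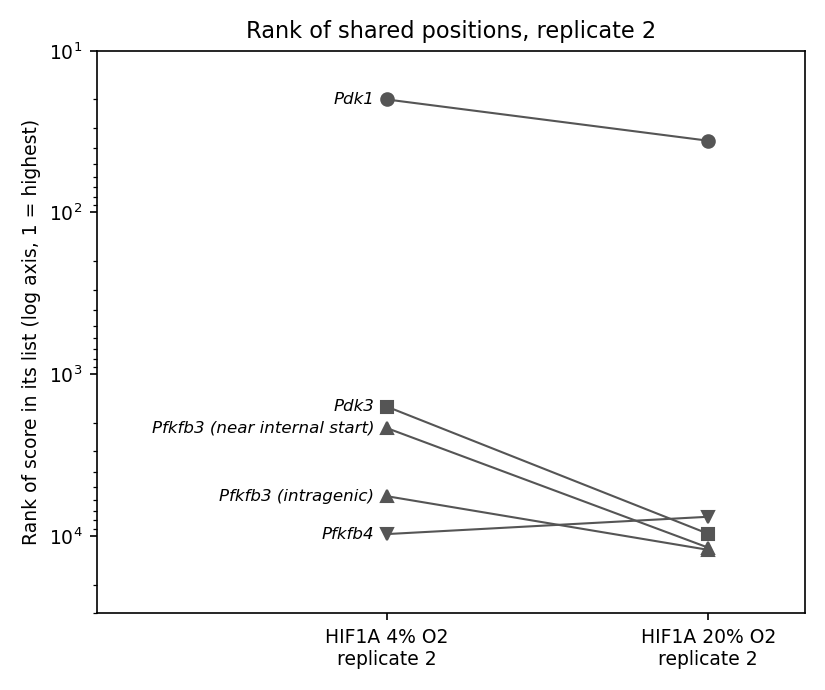
Rank of the authors' score (log axis, 1 at the top) of the positions found within 300 bp of each other in the HIF1A replicate 2 lists at 4% O2 (left) and 20% O2 (right). Pdk1 stays among the top 36, Pdk3 and both Pfkfb3 positions rank lower at 20% O2, and Pfkfb4 ranks higher there.

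The overlap of HIF1A and ARNT peaks at 4% O2 was near that of the whole lists. In replicate 1, where both antibodies shared lane and input, all 11 ARNT entries at the 8 genes overlapped a HIF1A entry, against 87.4% of all ARNT entries. Of the 18 HIF1A entries 10 overlapped an ARNT entry, against 48.7% of all HIF1A entries. The centres of the overlapping entries were 9 bp apart at the 18.4 kb site of Pfkfb3, 10 bp at Pdk3, 13 bp at Pdk2 and 26 bp for the main peak of Pdk1, and 109 bp at Pfkfb4. Of regions found in both replicates, 4 of 9 HIF1A regions had an ARNT region, against 45.4% of all 12710 HIF1A regions. All 4 ARNT regions had a HIF1A region, against 83.9% of all 6893 ARNT regions. HIF1A regions without an ARNT region lay at Pdk2, at Pfkfb4 and at 3 sites of Pfkfb3, at all of which except the upstream start of Pfkfb3 ARNT had a peak in at least 1 list at 4% O2.

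Around the 2 families, 23 other genes of the same steps were counted, from phosphofructokinase to the pyruvate and branched-chain dehydrogenase complexes and the mitochondrial pyruvate carrier. At 4% O2, 12 of 23 had a HIF1A region and 10 of 23 an ARNT region, against 34.2% and 27.7% of all genes. Both were present at 8 of 23, against 24.0% of all genes. At 20% O2, 4 of 23 had a HIF1A region and 2 of 23 an ARNT region, against 10.1% and 7.11%. As for the 8 genes, a longer window has more room for a peak. Peak numbers of both lists at 4% O2 were above both at 20% O2 at 5 of 23 genes for HIF1A and 8 of 23 for ARNT, against 17.1% and 21.2% of all genes, and below them at none of the 23. Pfkl and Pfkp, 2 of the phosphofructokinases that the PFKFB product activates, led the list with mean highest percentiles over the 4% O2 lists of 100 and 99.1, and both had regions of both antibodies at 20% O2 too. Behind them came Pdpr, a regulatory subunit of pyruvate dehydrogenase phosphatase, at 92, Pcx, pyruvate carboxylase, at 87.7, Bckdhb, a subunit of the branched-chain dehydrogenase, at 86.9, and Pdhb, the beta subunit of pyruvate dehydrogenase itself, at 84.8. Mpc2, a subunit of the pyruvate carrier, stood at 68.6 and Bckdha at 60.9. Pdha1, the subunit that PDK enzymes phosphorylate, had a peak in HIF1A replicate 1 at 4% O2 alone, at the 61.1st percentile, and Dlat, the core of the complex to which PDK enzymes bind, had 0 peaks in all 8 lists. Pdha1 and Dlat were named after their values were seen.

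For genes with peaks in at least 4 lists, the most similar genes were sought by Euclidean distance between the highest percentiles over the 8 lists. Nearest to Pdk1 were Smug1, Pcm1 and Plekhg1, at distances of 2.27, 2.54 and 2.98 percentile points. Nearest to Pdk3 were Wnt9b, Dnah17 and Wnt9a, at 4.59, 5.98 and 6.41. For Pfkfb3 they were Phldb1 at 11.5 and Pold1 and Nr1h2 at 14.6 each, a pair whose highest percentiles are the same in all 8 lists. Col7a1 and Ucn2 were at 0 from Pfkfb4 because their windows hold the same entries, and B4galnt4 followed at 22.7. Pdk2 had no close match, with Gmpr2 and Tinf2 at 38.9 and Tfb1m at 43.2.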

How the data were processed

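HIF1A and ARNT ChIP-seq peak lists of 8 samples were used, with groups and replicate numbers from the sample titles; the 4 inputs entered through the authors' peak calling. BWA, Picard and MACS2 and the build mm10 are named in the submitters' processing notes; their versions and settings were not stated. The deposited score of each peak is the authors' value, of unstated scale, and was used within a list only. Genes, spans and promoter windows came from RefSeq tables of GRCm38.p6, the assembly of mm10. A region needed entries of both lists of a group with an overlap of 1 bp, after single-base entries were widened by 100 bp on each side. Peak numbers per gene were compared by an exact permutation test, two-sided, with oxygen labels exchanged within antibody (36 arrangements), with a threshold of 0.05. Code (Python 3.11.15, numpy 2.4.6, pandas 2.3.3) was tested on simulated data with planted peaks. All 8 genes were described. Other genes of the pathway were named up to 8, by mean highest percentile among those with a region at 4% O2, and 3 similar genes for each gene with peaks in at least 4 lists; 23 of the pathway genes matched a symbol. The genes and lists were chosen with earlier results of these data known. Alternatives were windows of 5 kb or none, the 1808 highest peaks, an overlap of 50%, single-base entries as points, each replicate left out, and a replicate block.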

Additional observations from a re-analysis of the deposited data

How the results depend on the processing

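With each list limited to its 1808 highest entries, the number of the 8 genes with a region at 4% O2 was 1 for HIF1A (5 with all peaks) and 1 for ARNT (3), against 6.65% and 5.41% of all genes. Non-overlapping peak numbers were then at 0 genes for each antibody (2 and 3), against 3.3% and 3.99% of all genes; fewer peaks enter by construction. Under that setting the oxygen difference in peak number was 0 at Pfkfb1, Pfkfb2 and Pfkfb4 (exact permutation p = 1 each) and turned negative at Pdk2 (-0.25, p = 1). Within the gene span alone, HIF1A peak numbers did not overlap at 1 gene, Pfkfb3, against 9.44% of all genes. Without replicate 1 and without replicate 2, the genes with a peak numbered 4 and 0 for HIF1A at 20% O2 (31.7% and 11.3% of all genes), 4 and 6 for ARNT at 4% O2 (35.5% and 49.3%) and 1 and 3 for ARNT at 20% O2 (7.6% and 22.3%). Non-overlapping numbers held at 2 and 7 genes for HIF1A (17.8% and 55.5% of all genes) and at 4 and 5 for ARNT (32.3% and 41.2%), so the share of all genes moved with the count of the 8. The difference was 0 without replicate 1 at Pfkfb1, Pfkfb2 and Pdk2, and the p over both omissions was 1 at Pfkfb1 and Pfkfb2 and 0.5 to 1 at Pdk2. The cause of these changes was not tested. A window of 5 kb, an overlap of 50% and single-base entries as points changed none of the counts of genes.

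The labels tie same-numbered samples by their number alone, while the headers put the 4 replicate 1 samples on a shared lane, and both HIF1A replicate 2 lists have the same form and input number. With the replicate block (16 arrangements, smallest p 0.125) the p was 0.125 for Pfkfb3, 0.25 for Pfkfb4, Pdk1 and Pdk3, 0.625 for Pdk2 and 1 for Pfkfb1 and Pfkfb2. Deviations of same-numbered lists from their group means correlated at -0.56 for HIF1A and 0.62 for ARNT over genes. These are peak numbers not adjusted for list length. The HIF1A replicate 1 list was the longer at 4% O2 and the shorter at 20% O2, and that of ARNT the longer at both. What set the signs was not tested. With the HIF1A numbers crossed, a setting chosen after seeing the data, 0 of 7 genes had an exact permutation p under 0.05. No setting could give that, since its smallest p is above 0.05.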
